A study of Mus musculus with 6 samples.

Results

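The interferon-stimulated genes described here are a list of 39 mouse genes that cells switch on when interferon binds its receptors. The list was chosen by name and not by a measured value, though with earlier results of these data known. Of the 39 genes, 37 were counted among the 32285 genes measured, with Mx1 and Mx2 not analysed here. These members were followed through single cells of the mouse cortex after permanent middle cerebral artery occlusion (pMCAO), a model in which 1 large brain artery is closed for good. The labels name 6 samples, 1 for each group: cortex contralateral (Contra) or ipsilateral (IPSI) to the occlusion at 1 h, 12 h or 24 h. All of them came from male RGS5::GFP het mice aged 8 to 12 weeks, in which GFP replaces 1 allele of Rgs5, so that every group lacked an Rgs5 copy and there was no unoperated group. The study's methods give fewer mice for the single-cell sequencing than there are samples, so the samples are not all from separate animals. No label ties a sample to a mouse. The suspensions had been depleted of neurons and sorted as live cells that excluded DAPI, and the labels name kit v3 at 1 h and 24 h but v3.1 at 12 h, whereas the study's methods name v3.1 throughout and another sequencer at 24 h (HiSeq) than at 1 h and 12 h (NovaSeq). Time cannot be told apart from such differences. The count matrix numbers its libraries from 1 to 6 and names no sample for any number. No library was therefore given a hemisphere or a time, no conditions were compared, and each value below belongs to a numbered library or to a cell class over all 6 libraries.

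Type I interferon is sensed through a receptor pair formed by the products of Ifnar1 and Ifnar2, whose kinases activate transcription factors, among them STAT2. STAT2 joins IRF9 and binds interferon-stimulated response elements in the promoters of target genes. The targets include IFIT proteins, which bind foreign RNA, ISG15, a ubiquitin-like protein attached to other proteins, the 2-5A synthetases, which start the decay of RNA, membrane proteins that hinder virus entry or release, and IRF7, which raises interferon production further. Interferon gamma acts through another receptor, with IRF1 and the guanylate-binding proteins among its targets. In the brain, endothelial cells and microglia are known responders to both.

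Promoter sequence is shown for 4 members whose levels are followed below. Isg15 and Ifit1 are classical targets, Ifitm3 supplied the most UMIs (unique molecular identifiers, each marking 1 captured RNA molecule), and Xaf1 was the only member with a high level in oligodendrocyte-like cells. Each line runs 5′ to 3′ on the gene's strand, from 250 bases before to 50 bases after the start given by RefSeq (build GRCm38.p6), and capitals mark matches to GAAANNGAAA on either strand, the core of the response element. The windows lie at chr4:156200769-156201068 on the minus strand (Isg15), chr19:34640639-34640938 on the plus strand (Ifit1), chr7:141010695-141010994 on the minus strand (Ifitm3) and chr11:72301379-72301678 on the plus strand (Xaf1).
Isg15: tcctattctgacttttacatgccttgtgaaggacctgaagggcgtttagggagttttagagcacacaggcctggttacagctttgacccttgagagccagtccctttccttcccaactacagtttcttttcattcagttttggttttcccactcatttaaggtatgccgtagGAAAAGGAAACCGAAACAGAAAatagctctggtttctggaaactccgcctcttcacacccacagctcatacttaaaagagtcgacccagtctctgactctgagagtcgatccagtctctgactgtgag
Ifit1: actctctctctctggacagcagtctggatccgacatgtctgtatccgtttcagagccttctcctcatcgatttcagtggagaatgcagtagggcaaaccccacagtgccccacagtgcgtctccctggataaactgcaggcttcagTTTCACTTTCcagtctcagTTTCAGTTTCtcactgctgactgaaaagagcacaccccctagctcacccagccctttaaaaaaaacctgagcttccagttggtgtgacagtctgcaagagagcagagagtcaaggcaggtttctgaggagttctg
Ifitm3: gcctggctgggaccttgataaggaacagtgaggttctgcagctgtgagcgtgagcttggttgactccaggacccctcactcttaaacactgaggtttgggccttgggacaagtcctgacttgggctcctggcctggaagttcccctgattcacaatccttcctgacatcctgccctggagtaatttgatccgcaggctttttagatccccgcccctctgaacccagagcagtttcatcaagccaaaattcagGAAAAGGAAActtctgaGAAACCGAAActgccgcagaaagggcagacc
Xaf1: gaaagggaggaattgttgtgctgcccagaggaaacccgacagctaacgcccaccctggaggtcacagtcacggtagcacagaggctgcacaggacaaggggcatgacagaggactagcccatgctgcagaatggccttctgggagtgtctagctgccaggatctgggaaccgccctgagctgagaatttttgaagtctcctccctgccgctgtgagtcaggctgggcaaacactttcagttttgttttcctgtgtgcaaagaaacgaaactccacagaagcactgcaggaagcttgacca
The Isg15 window held 3 matches, which overlap one another, the Ifit1 and Ifitm3 windows held 2 each, and the Xaf1 window held 0. Of the 29 members with a RefSeq window, 15 (51.7%) held at least 1 match, beside 3.99% of 27025 genes with such a window and 3.44% of all 32851 windows. At least 2 matches were found for 8 members, beside 0.266% of all genes. A match is a run of letters and not a measured binding site.

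105548782 UMIs in 17327 cells entered the analysis, after 30 erythrocyte barcodes were set aside, with 1221 to 5869 cells by library and, before that step, a median of 5053 to 5660.5 UMIs per cell by library. Cells were clustered without the members or other interferon-stimulated genes among the variable genes and named from marker lists: 8127 were microglia-like, 2815 oligodendrocyte-like, 2659 endothelial cell-like, 1164 astrocyte-like, 824 pericyte-like, 373 monocyte-derived macrophage-like, 256 smooth muscle cell-like, 178 neutrophil-like and 95 T lymphocyte-like, the last also carrying natural killer cell genes. Of the monocyte-derived macrophage-like cells, 122 were in library 4 and 233 in library 6. Levels are CPM, the UMIs of a gene in every 1000000 UMIs of the class, with exact 95% Poisson intervals that cover counting error only. The reads tag the 3′ end of a transcript, so levels were not divided by gene length. The members summed to 522 to 1167 CPM by library in barcodes with 1 to 50 UMIs, which hold free RNA, and 26 barcode sequences occurred in more than 1 library (52 cells).

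Summed over the 37 members and all libraries, the level among the named classes was highest in myeloid cells from blood and in endothelium, and lowest in oligodendrocytes. It was 5157 CPM (95% interval 5080.1 to 5234) in monocyte-derived macrophage-like cells, 4174 CPM (95% interval 4137 to 4211) in endothelial cell-like cells and 3706 CPM (95% interval 3563 to 3854) in neutrophil-like cells. T lymphocyte-like cells followed with 1618 CPM (95% interval 1507 to 1734), pericyte-like cells with 1561 CPM (95% interval 1518 to 1605) and smooth muscle cell-like cells with 1523 CPM (95% interval 1466 to 1581), 3 intervals that overlap in part. Microglia-like cells, which are the resident macrophages of the brain, had 848 CPM (95% interval 839.6 to 857), astrocyte-like cells 314 CPM (95% interval 302 to 328), neuroblast-like cells 189.8 CPM (95% interval 174 to 207) and oligodendrocyte-like cells 169.97 CPM (95% interval 165 to 175). The order of the first classes depended on the library. Monocyte-derived macrophage-like cells exceeded endothelium in library 4, at 7666 CPM beside 5585 CPM, but not in library 6, which held 233 of their 373 cells, at 3815 CPM beside 4272 CPM. Endothelium carried 48460 of the 137495 member UMIs with 2659 of the 17327 cells.

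1 gene dominated these sums. Ifitm3, a membrane protein that hinders virus entry, made up 36.8% of all member UMIs, 71.5% of them in pericyte-like cells, 49.6% in endothelial cell-like cells and 2.80% in microglia-like cells. Without it the sums were 2409 CPM in neutrophil-like, 2329.9 CPM in monocyte-derived macrophage-like, 2102 CPM in endothelial cell-like, 1583 CPM in T lymphocyte-like, 824 CPM in microglia-like and 445 CPM in pericyte-like cells. Within libraries 4 and 6 the order of the first 2 was the other way round, with monocyte-derived macrophage-like cells at 3299 and 1844 CPM and neutrophil-like cells at 2978 and 1211 CPM. Pericyte-like cells stood above microglia-like cells with Ifitm3 and below them without it. In the 63 cells of a cluster led by Il11 and Ccl11, found in libraries 4 and 6 alone, Ifitm3 was 86.5% of a sum of 7613 CPM. This cluster carried the pericyte markers Pdgfrb and Kcnj8 at 1142 and 1587 CPM, beside 1461 and 1601 CPM in pericyte-like cells. Its Rgs5 and Atp13a5 were lower, at 828 and 88.5 CPM beside 3474 and 1263 CPM. It is not part of the pericyte-like class, so the pericyte values given here leave it out. A cluster of 258 cells led by class II genes, which passed no naming rule, summed to 4303 CPM. Of the smaller classes, 31 fibroblast-like cells summed to 3521 CPM, 55 B lymphocyte-like cells to 1412 CPM and 22 choroid plexus cell-like cells to 1007 CPM.

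**Figure D1:**
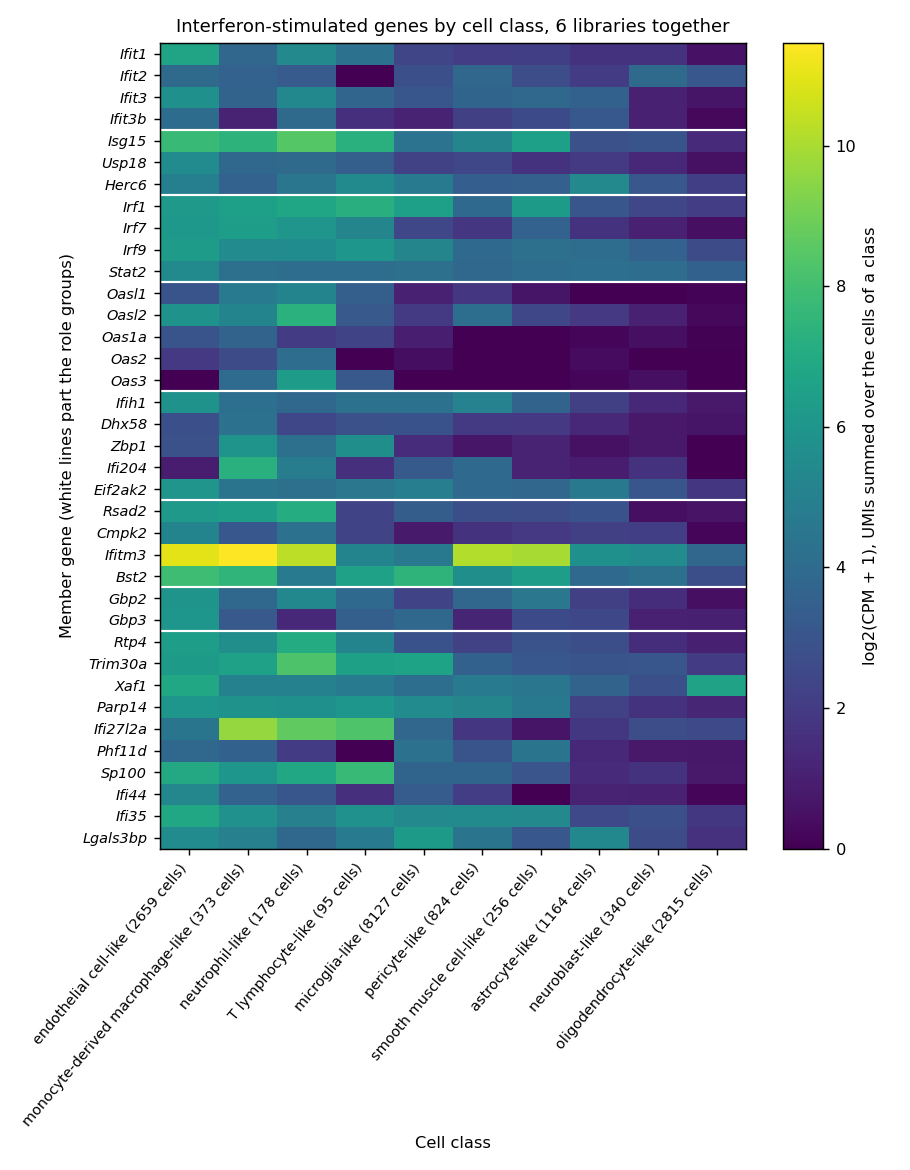
Level of each of the 37 members (rows, in role groups parted by white lines) in 10 cell classes (columns), as log2(CPM + 1) of UMIs summed over the class and the 6 libraries. The endothelial column is high in most rows, and the oligodendrocyte column is low except for Xaf1. The Ifitm3 row stands out in endothelial, blood-derived myeloid and mural cells but not in microglia-like cells.

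Among the 10 classes of 95 or more cells, 16 members had their highest level in endothelium (8.7% of all 16705 genes with at least 20 UMIs), and for 12 of them the ratio to the next class had a 95% interval above 1. These 16 were Ifit1, Ifit2, Ifit3, Ifit3b, Usp18, Irf9, Stat2, Ifih1, Eif2ak2, Cmpk2, Bst2, Gbp2, Gbp3, Xaf1, Ifi44 and Ifi35. The lead of endothelium is not resolved for Ifit2, Ifit3, Ifit3b and Irf9. For Ifit3 and Ifit3b the next class, neutrophil-like cells, held 27 and 10 UMIs, and for Irf9 T lymphocyte-like cells held 31. Neutrophil-like cells were highest for 8 members (7 beyond counting error, 5.86% of all genes), namely Isg15, Oasl1, Oasl2, Oas2, Oas3, Rsad2, Rtp4 and Trim30a. Monocyte-derived macrophage-like cells were highest for 7 (6 beyond counting error, 3.92% of all genes), namely Irf7, Oas1a, Dhx58, Zbp1, Ifi204, Ifitm3 and Ifi27l2a. T lymphocyte-like cells led for Herc6, Irf1, Parp14 and Sp100 (1 of 4 beyond counting error, Sp100, 6.36% of all genes), microglia-like cells for Lgals3bp (12.3% of all genes) and smooth muscle cell-like cells for Phf11d (5.81% of all genes), the last within counting error.

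These ranks pool libraries that the classes fill unequally. Within single libraries, among classes with at least 20 cells, endothelium led for 14 to 16 of its 16 members in libraries 1 to 5 and for 9 in library 6. Neutrophil-like, monocyte-derived macrophage-like and T lymphocyte-like cells all reached 20 cells in libraries 4 and 6 alone. Endothelium led for 14 of 16 in library 4. Libraries 1 and 5 held none of these classes at that size, library 2 only T lymphocyte-like and library 3 only neutrophil-like cells. In library 6 Ifit2, Ifit3b, Irf9, Stat2, Ifih1, Xaf1 and Ifi35 were highest in another class. Neutrophil-like cells led for 7 of their 8 members in library 3, 8 in library 4 and 4 in library 6. Isg15 led in neutrophils in library 4 alone, since endothelium was higher in library 3, at 281 CPM beside 263 CPM, and in library 6, at 127 CPM beside 57.4 CPM. Monocyte-derived macrophage-like cells led for all 7 of their members in library 4 and for Irf7, Dhx58 and Ifi204 in library 6.

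Taken as a sum, the IFIT genes set endothelium apart from the other large classes, at 184 CPM beside 104 CPM (95% interval 81.3 to 131) in neutrophil-like cells. Ifit1 was at 101 CPM (95% interval 95.5 to 107) in endothelial cell-like cells, at 41.04 CPM in neutrophil-like cells and at 4.27 CPM in microglia-like cells. Its ratio of endothelium to neutrophils was 2.47 (95% interval 1.70 to 3.73) and that of endothelium to microglia 23.7 (95% interval 20.3 to 27.8). Ifit3 was at 52.6 CPM in endothelium and 7.42 CPM in microglia, a ratio of 7.09 (95% interval 6.19 to 8.12). Ifit3 and its near copy Ifit3b share sequence at the 3′ end (24.04% of the 31-base words in the last 500 bases of Ifit3), so that the split of reads between them is uncertain. Ifit2 was low throughout these classes, at 14.7 CPM in endothelium and 14.7 CPM in neuroblast-like cells, and its ratio of 1.003 (95% interval 0.708 to 1.45) had an interval that included 1. In the 31 fibroblast-like cells, too few for the ranking, the IFIT genes summed to 268 CPM (95% interval 201 to 351), beside 184 CPM in endothelium. There 1 cell supplied 9 of the 28 Ifit2 UMIs and 1 supplied 11 of the 23 Ifit3 UMIs.

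Isg15, Irf7 and Irf1 were high in blood-derived cells as well as in endothelium. Isg15 was at 350.3 CPM (95% interval 307 to 398) in neutrophil-like, 209 CPM (95% interval 201 to 218) in endothelial cell-like and 171 CPM (95% interval 157 to 186) in monocyte-derived macrophage-like cells, and at 19.3 CPM in microglia-like cells. Usp18, the protease that removes ISG15 and dampens receptor signalling, was at 45.9 CPM in endothelium, 14.7 CPM in neutrophils and 3.71 CPM in microglia. Irf7 was at 84.04 CPM in monocyte-derived macrophage-like, 68.8 CPM in endothelial cell-like, 61.6 CPM in neutrophil-like and 4.45 CPM in microglia-like cells. Irf1, in contrast, was at 147 CPM in T lymphocyte-like, 88.9 CPM in microglia-like, 86.7 CPM in monocyte-derived macrophage-like and 69.3 CPM in endothelial cell-like cells, so that microglia were not the lower class for this factor. Stat2 and Irf9 were at 43.8 and 76.7 CPM in endothelium and at 17.8 and 36.6 CPM in microglia. In monocyte-derived macrophage-like cells Stat2 was near the microglial level, at 19.2 CPM in library 4 and 17.1 CPM in library 6. Neutrophil-like and T lymphocyte-like cells held 11 and 8 Stat2 UMIs.

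The 2-5A synthetase family, taken as a sum, was highest in neutrophils and macrophages, at 287 and 92.7 CPM beside 73.4 CPM in endothelium. Oasl2 was at 157 CPM in neutrophil-like, 56.8 CPM in endothelial cell-like and 2.82 CPM in microglia-like cells. In monocyte-derived macrophage-like cells Oasl2 was below that endothelial level, at 25.6 CPM in library 4 and 39.8 CPM in library 6. Oas3 was at 76.2 CPM (95% interval 56.9 to 99.9) in neutrophil-like and 15.2 CPM in monocyte-derived macrophage-like cells, and no UMI of it was seen among the 11610527 UMIs of endothelium. Oas1a reads are uncertain, since 70% of the words in its last 500 bases are shared with Oas1g. Of the nucleic acid sensors, Ifih1 (the RNA sensor MDA5) and Eif2ak2 (the kinase PKR) were highest in endothelium, at 56.6 and 62.96 CPM, while Ifi204, a DNA sensor of the AIM2-like family, was at 153 CPM (95% interval 139.7 to 166) in monocyte-derived macrophage-like cells and 0.861 CPM in endothelium. Zbp1, a sensor of left-handed nucleic acid, was at 59.3 CPM in monocyte-derived macrophage-like and 50.996 CPM in T lymphocyte-like cells.

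Among the antiviral effectors, Bst2 (tetherin, which holds budding virus at the membrane) was at 241 CPM (95% interval 232 to 250.3) in endothelium, 180.01 CPM (95% interval 166 to 195) in monocyte-derived macrophage-like cells and 175 CPM (95% interval 171 to 179) in microglia, and at 26.4 CPM in neutrophils. Rsad2 (viperin) was at 138 CPM in neutrophil-like, 84.6 CPM in monocyte-derived macrophage-like and 71.7 CPM in endothelial cell-like cells. However, 26 of the 94 neutrophil UMIs and 95 of the 284 macrophage UMIs came from 1 cell each, both of library 4. Gbp2 and Gbp3, guanylate-binding proteins, were at 60.8 and 65.03 CPM in endothelium and at 4.09 and 13.6 CPM in microglia. Ifi27l2a was at 809 CPM in monocyte-derived macrophage-like, 402 CPM in neutrophil-like and 312 CPM in T lymphocyte-like cells, beside 21.2 CPM in endothelium. Trim30a, which restrains inflammatory signalling, was at 309 CPM in neutrophils and 99.8 CPM in microglia, with 23.6% of its end words shared with Trim30d. Words at the 3′ end were also shared with other genes by Phf11d (34.9%), Ifitm3 (28.3%), Herc6 (26.03%) and Ifi204 (15.3%), whose counts are uncertain to that extent.

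Set against microglia, 26 of the 36 members with at least 20 UMIs over both classes were at least 2-fold higher in endothelium, where 21.1% of all 14059 such genes were. Only Ifi204 was at least 2-fold lower, beside 25.1% of all genes. The median log2 ratio was 2.16 over the members and -0.05 over all genes. Endothelium was above microglia in each of the 6 libraries for 27 of the 36 members (28.5% of all genes), and at or below it in each for Ifi204, Trim30a and Lgals3bp (30.5% of all genes). Against pericytes, which share the basement membrane with endothelium, 30 of 36 members were at least 2-fold higher in endothelium (15.2% of all genes) and Ifi204 at least 2-fold lower (21.1% of all genes). Against astrocytes 32 of 35 were at least 2-fold higher (20.9% of all genes) and 0 at least 2-fold lower (30.4% of all genes). Against oligodendrocytes 33 of 35 were at least 2-fold higher (24.7% of all genes), the 2 others being Xaf1 and Ifit2, and 0 were at least 2-fold lower (23.1% of all genes), with a median log2 ratio of 6.002.

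The blood-derived myeloid classes also stood above microglia. In monocyte-derived macrophage-like cells 19 of 37 members were at least 2-fold higher (10.9% of all genes), and Herc6 and Lgals3bp were at least 2-fold lower (42.7% of all genes). In neutrophil-like cells 21 of 37 members were at least 2-fold higher (23.1% of all genes), and Gbp3, Bst2, Lgals3bp and Phf11d were at least 2-fold lower (43.2% of all genes). Pericyte-like and smooth muscle cell-like cells, both wrapped around vessels, had a median log2 ratio of 0.04 over the members and 0.35 over all genes. Of 25 members counted there, Ifi204, Ifih1, Oasl2, Lgals3bp and Ifit2 were at least 2-fold higher in pericytes (17.8% of all genes) and Isg15, Irf7, Irf1 and Phf11d at least 2-fold lower (7.67% of all genes). Irf7 is uncertain among these, since 14 of its 20 UMIs in smooth muscle cell-like cells came from 1 cell of library 6. In smooth muscle cell-like cells Isg15 was at 88.2 CPM, Bst2 at 84.9 CPM and Irf1 at 74.3 CPM, and Irf7, Ifit3, Ifit1 and Usp18 were at 11.1, 13.9, 3.33 and 2.22 CPM. In T lymphocyte-like cells Ifit1, Ifit3 and Usp18 were at 18.4, 12.2 and 10.2 CPM, Isg15 was at 153 CPM, Bst2 at 93.8 CPM and Irf7 at 36.7 CPM, whereas Ifitm3 was at 34.7 CPM. Of their 75 Isg15 UMIs 25 came from 1 cell of library 5, and of their 46 Bst2 UMIs 13 came from 1 cell of library 6. Isg15 was at 34.3, 63.4 and 160 CPM in their largest libraries, 2, 4 and 6.

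Within endothelium the sum differed between libraries by less than it did between classes. It was 3701, 3846, 4398, 5585, 3033 and 4272 CPM in libraries 1 to 6, a highest to lowest ratio of 1.84 (95% interval 1.79 to 1.90), with library 4 highest and library 5 lowest. Without Ifitm3 it was 2262, 2463, 2609.9, 2567, 1835 and 1449 CPM, so that library 6 became the lowest and library 3 the highest, with a ratio of 1.80 (95% interval 1.73 to 1.87). Since each highest and lowest library was picked from the 6 values, such a ratio is a description of the spread.

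**Figure D2:**
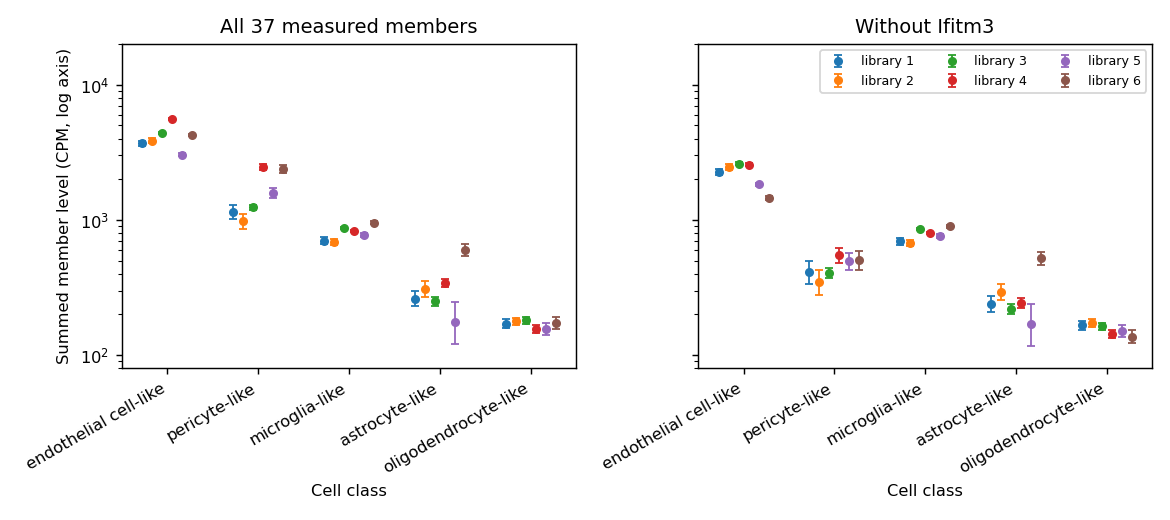
Summed level of the members in CPM (log axis) in 5 cell classes, 1 point for each of the 6 libraries with its exact 95% Poisson interval, for all 37 members (left) and without Ifitm3 (right). Endothelial points lie between 3033 and 5585 CPM on the left and between 1449 and 2610 CPM on the right, above every point of the other 4 classes, and oligodendrocyte cells are the lowest class in each library on both sides, at 155 to 181 CPM on the left.

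Ifitm3 and the classical targets took different orders over the libraries. Ifitm3 in endothelium was at 1439, 1383, 1788, 3018, 1198 and 2823 CPM in libraries 1 to 6, so that libraries 4 and 6 were the highest. Ifit1 was at 80.6, 112, 142, 139, 100.4 and 40.1 CPM and was lowest in library 6, with a highest to lowest ratio of 3.54 (95% interval 2.87 to 4.38). Isg15 was at 194, 220.1, 281, 297, 162 and 127 CPM, again with library 6 lowest. Both targets were highest in libraries 3 and 4, with Ifit1 close in these 2 libraries. Xaf1, a pro-apoptotic protein, was at 149, 146, 152, 164, 98.9 and 55.7 CPM, with libraries 1 to 4 alike and libraries 5 and 6 lower.

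The other genes named for every class varied less in endothelium. Usp18 was at 61.7, 62.9, 57.3, 50.2, 35.4 and 34.98 CPM and Ifit3 at 32.6, 62.9, 45.4, 59.8, 62.8 and 47.5 CPM over libraries 1 to 6. Irf7 was at 66.9, 53.4, 93.6, 82.2, 56.5 and 51.3 CPM, and Bst2 at 305, 300.2, 284, 325, 163 and 193 CPM, with libraries 5 and 6 the lowest. Irf1 was at 78.9, 80.2, 71.6, 77.96, 66.8 and 59.8 CPM, and the interval of its highest to lowest ratio, 1.34 (95% interval 0.962 to 1.84), included 1. Of the 30 members with at least 100 endothelial UMIs, Ifit1, Ifit3b, Ifi44, Ifi27l2a and Lgals3bp differed by at least 3-fold between their highest and lowest library, a share close to the 16.9% of all genes. The widest were Ifi27l2a, at 3.43, 11.003, 39.8, 28.3, 14.8 and 10.2 CPM, and Ifit3b, at 13.7, 34.6, 21.99, 22.96, 11.4 and 4.07 CPM, the first highest in library 3 and the second in library 2.

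**Figure D3:**
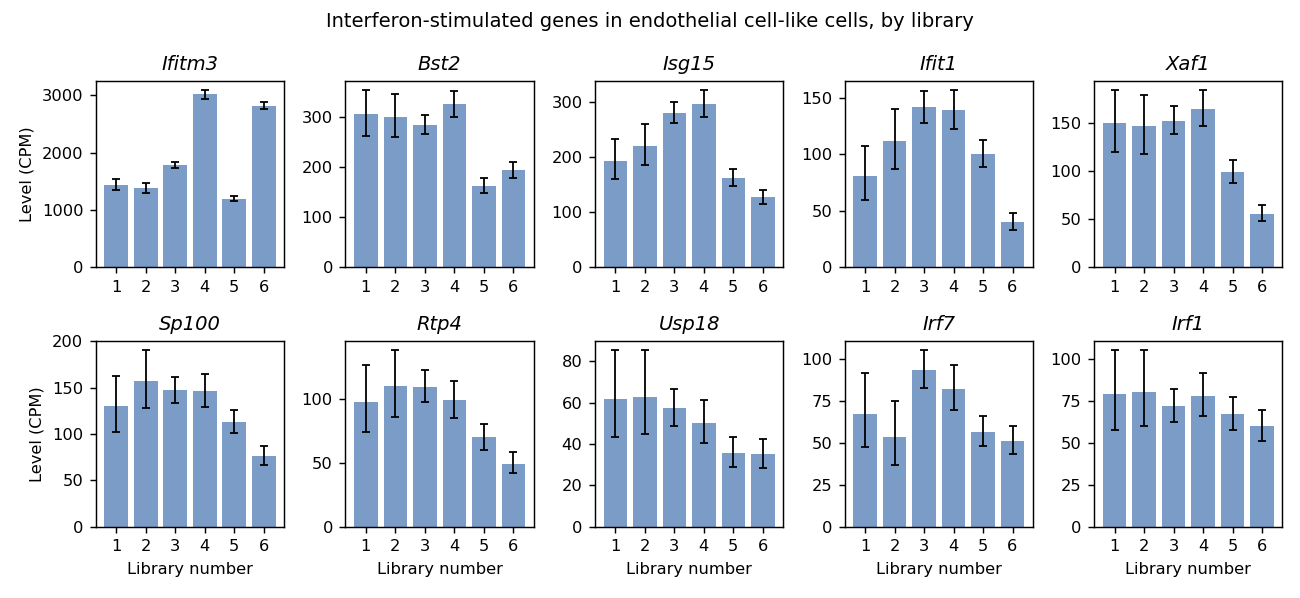
Level of 10 members in endothelial cell-like cells in CPM (linear axes from 0, a scale of its own for each gene) by library number, with exact 95% Poisson intervals. Ifitm3 is highest in libraries 4 and 6, at 3018 and 2823 CPM, whereas Ifit1, Xaf1, Sp100 and Rtp4 are lowest in library 6.

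The endothelial class was made of different clusters in different libraries. A cluster of 1824 cells led by Itm2a, Spock2 and Slco1a4 was found in all libraries, one of 285 cells was led by the arterial genes Gkn3, Bmx and Sema3g, and one of 550 cells led by Tmem252, Lcn2 and Ackr1 had 176 cells in library 4 and 329 in library 6. Ifitm3 was at 1410.1 CPM in the first, 2022 CPM in the second and 3845 CPM in the third, whereas Ifit1 was at 117, 107 and 56.03 CPM and Isg15 at 220.2, 249 and 158 CPM. Taken over all libraries, the Ackr1 cluster had the highest Ifitm3 and the lowest Ifit1 and Isg15 of the 3, but most of its cells came from library 6. Within library 6 its Ifit1 was at 43.3 CPM, beside 35.1 CPM in the first and 36.5 CPM in the second, which held 8 Ifit1 UMIs. This order is within counting error. Its Isg15 in library 6, at 136 CPM, lay between 106 and 151 CPM. Within library 4 its Ifit1 was the lowest, at 81.7 CPM beside 173 and 204 CPM, and its Ifitm3 was the highest in both libraries. Within the first cluster alone, Ifitm3 was at 1234, 1133, 1552, 2165, 1038 and 1405 CPM over libraries 1 to 6, so that library 6 fell within the range of the others. Ifit1 in that cluster was at 77.4, 108, 152, 173, 104 and 35.1 CPM and Isg15 at 161, 200.04, 291, 367, 151 and 106 CPM, with library 6 still the lowest and library 4 the highest for both.

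In microglia the sum was 704, 688, 877, 823, 775 and 956 CPM in libraries 1 to 6, a highest to lowest ratio of 1.39 (95% interval 1.31 to 1.48). It rested on members present in many cells. Bst2 was at 119.8, 134, 169, 211, 128 and 179 CPM, Trim30a at 89.2, 77.9, 109, 98.1, 109.7 and 80.9 CPM and Irf1 at 94.6, 64.9, 96.1, 84.2, 90.8 and 83.6 CPM, with spreads under 2-fold. Lgals3bp, a secreted glycoprotein, was at 59.2, 58.7, 79.8, 67.1, 62.96 and 102 CPM and was highest in library 6.

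The classical targets were rare in microglia and uneven between libraries. Ifit1 was at 0, 2.08, 1.77, 3.78, 3.58 and 14.3 CPM, Ifit3 at 0.681, 6.75, 4.34, 5.86, 6.53 and 21.5 CPM and Rsad2 at 0.681, 1.56, 3.65, 5.01, 5.26 and 41.2 CPM over libraries 1 to 6. Library 6 was the highest for all 3. In library 6, 1 cell supplied 33 of the 91 Ifit1 UMIs, and Ifit1 was at 9.12 CPM there without it. For Rsad2 1 cell supplied 63 of 262 UMIs, and the level without it was 31.3 CPM. The library 1 values of Ifit3 and Rsad2 rest on 1 UMI each. Isg15 was at 10.9, 17.1, 14.2, 22.9, 12.2 and 34.1 CPM, Irf7 at 0.681, 3.12, 5.14, 3.32, 2.74 and 7.38 CPM, Usp18 at 0.681, 2.60, 3.94, 2.78, 2.11 and 7.23 CPM and Ifitm3 at 6.81, 10.9, 17.5, 20.4, 17.9 and 59.8 CPM, each again highest in library 6 when the class was taken whole. In free RNA Ifitm3 was at 112, 114, 222, 501, 148 and 634 CPM and Isg15 at 16.04, 21.5, 44.6, 58.1, 20.1 and 28.3 CPM over the same libraries, and the part of free RNA in these values was not tested. Free RNA held Rsad2 at 6.65, 7.31, 6.83, 5.66, 6.26 and 11.6 CPM, above the microglial level of the same library in libraries 1 to 5 and below it in library 6. Of 30 members with at least 100 UMIs in microglia, 12 differed at least 3-fold between libraries, beside 16.5% of all genes.

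Clusters again differed in their libraries. Clusters led by Ccl12 and Gpr84 (1224 cells) and by Mmp12, Lpl and Spp1 (358 cells) were found almost wholly in libraries 4 and 6. In the Mmp12 cluster the members summed to 829 CPM in library 4 and 1698 CPM in library 6, with Ifit1 at 10.7 and 74.6 CPM and Ifit3 at 16.8 and 91.7 CPM. In the Ccl12 cluster the sums were 848 CPM in library 4 and 855 CPM in library 6, a difference within the counting intervals. The library 6 excess of Ifit1 and Ifit3 was thus larger in the Mmp12 cluster than in the Ccl12 cluster, where Ifit1 was at 2.18 and 4.29 CPM. In library 6, however, 1 microglia-like cell supplied 33 of the 91 Ifit1 UMIs of the class, and 1 supplied 39 of the 137 Ifit3 UMIs. Cluster levels without these cells were not computed, so that the size of this excess is uncertain. In the microglial clusters led by P2ry12, by Maf and by Cd83, found in all libraries, Ifit1 was at 0 CPM in library 6. There Ifit3 was at 2.02, 3.13 and 0 CPM, Isg15 at 0, 9.40 and 20.3 CPM and Ifitm3 at 10.1, 9.40 and 1.69 CPM, on 129, 76 and 126 cells. Their sums in library 6 were 679, 774 and 719 CPM. In these clusters library 6 was not the highest for the sum or for any of these genes.

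Oligodendrocyte-like cells had almost none of the program, with 1 exception. Xaf1 was at 94.96 CPM (95% interval 91.2 to 98.8) there, second to endothelium, and supplied 2433 of the 4355 member UMIs of the class. By library it was at 119, 116, 89.5, 76.9, 96.7 and 67.6 CPM, so that libraries 1 and 2 were the highest and library 6 the lowest. Free RNA held Xaf1 at 29.5 to 84.7 CPM, below the oligodendrocyte level in each library. Stat2 was at 9.37 CPM, 10.5 CPM and 12.8 CPM as the lowest, median and highest library, and Ifit2 at 6.24 CPM, 7.66 CPM and 10.5 CPM. Apart from Ifitm3, the remaining members were lower still over all libraries, with Isg15 at 1.60 CPM, Bst2 at 5.74 CPM and Irf1 at 3.20 CPM. Ifit3 was at 0.546 CPM, Ifit1 at 0.468 CPM, Usp18 at 0.429 CPM and Irf7 at 0.390 CPM. Ifitm3 was at 4.81, 4.42, 17.5, 12.8, 6.15 and 36.8 CPM over libraries 1 to 6, and 52 of its 325 UMIs came from 1 cell. A cluster of 167 oligodendrocyte-like cells, of which 26.9% were called doublets, summed to 829 CPM, whereas the other 4 oligodendrocyte clusters lay between 127 and 151 CPM. Of the 7 members with at least 100 UMIs, Ifitm3, Bst2, Ifi27l2a and Irf9 differed at least 3-fold between libraries (9.31% of all genes).

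In pericyte-like cells, which leave out the 63 cells of the Il11 cluster, the sum followed Ifitm3. Ifitm3 was at 736, 635, 830.4, 1913, 1092 and 1877 CPM in libraries 1 to 6, highest in libraries 4 and 6, and the sum was 1147, 981, 1237, 2461, 1589 and 2379 CPM. Ifitm3 in free RNA, given above for each library, was likewise highest in libraries 4 and 6, and its part in the result was not tested. Without Ifitm3 the sum was 411, 346, 406, 548, 497 and 503 CPM, and the highest to lowest ratio fell from 2.51 (95% interval 2.18 to 2.89) to 1.58 (95% interval 1.24 to 2.04). Isg15 was at 7.40, 4.02, 24.4, 90.9, 45.4 and 41.6 CPM, with library 4 the highest and libraries 1 and 2 the lowest. Bst2 was at 38.7 CPM, 48.6 CPM and 64.1 CPM as the lowest, median and highest library and Irf1 at 0 CPM, 14.5 CPM and 33.1 CPM. Ifit3 had a median of 9.39 CPM, Ifit1 one of 1.34 CPM, Irf7 one of 2.73 CPM and Usp18 one of 4.45 CPM over the libraries, on 80 to 370 cells. Ifih1, Isg15 and Ifitm3 differed at least 3-fold, of 6 members with at least 100 UMIs (18.5% of all genes). Of the pericyte-like cells, 6.67% were called doublets.

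Astrocyte-like cells numbered 31 in library 5 and 90 in library 6, and their sum was 262, 311, 251, 341, 176 and 601 CPM in libraries 1 to 6. Library 6 was the highest both with Ifitm3 and without it, at 519.9 CPM without. Herc6, a ligase of the ISG15 system, was at 42.3, 61.3, 36.6, 29.7, 37.3 and 68.9 CPM and Lgals3bp at 20.1, 30.7, 33.1, 45.9, 37.3 and 92.4 CPM, while Ifit3 was at 13.7, 16.7, 3.51, 6.49, 31.9 and 39.1 CPM, highest in libraries 5 and 6. Ifitm3 was at 22.2, 18.1, 32.3, 97.9, 5.32 and 81.4 CPM, and 64 of its 381 UMIs came from 1 cell of library 4. Bst2, at 14.1 CPM, Irf1, at 7.35 CPM, Isg15, at 6.10 CPM, Usp18, at 2.91 CPM, Ifit1, at 2.22 CPM, and Irf7, at 2.22 CPM, were all below their microglial or endothelial levels. Of 7 members with at least 100 UMIs, 5 differed at least 3-fold between libraries (21.9% of all genes).

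Monocyte-derived macrophage-like cells could be compared in libraries 4 and 6 alone. The sum was 7666 CPM in library 4 and 3815 CPM in library 6, and without Ifitm3 3299 CPM and 1844 CPM. Ifitm3 was at 4368 and 1971 CPM, Ifi27l2a at 1494 and 458 CPM and Isg15 at 242 and 140.1 CPM in libraries 4 and 6. All 3 were higher in library 4. Bst2 was at 237 and 152 CPM, Irf7 at 90.4 and 77.7 CPM, Irf1 at 81.3 and 90.2 CPM, Ifi204 at 158 and 147 CPM, Ifit1 at 18.3 and 10.6 CPM, Ifit3 at 4.57 and 15.7 CPM and Usp18 at 16.4 and 12.5 CPM, so that Irf7, Irf1 and Ifi204 were close in both libraries. Since 14 of the 20 Ifit1 UMIs of library 4 came from 1 cell, the order of the 2 libraries for Ifit1 is not resolved. Neutrophil-like cells were at 20 or more in libraries 3, 4 and 6, with Isg15 at 263, 529 and 57.4 CPM, Trim30a at 313, 342 and 281 CPM, Ifitm3 at 1814, 1515 and 775 CPM and Irf1 at 150.1, 96.4 and 86.1 CPM. Isg15 was lowest in library 6 there, as it was in endothelium, and Ifit1 was at 113, 49.6 and 5.74 CPM, Ifit3 at 0, 52.3 and 22.95 CPM, Irf7 at 100.1, 77.1 and 22.95 CPM, Usp18 at 25.02, 11.02 and 11.5 CPM and Bst2 at 12.5, 35.8 and 17.2 CPM on 22, 90 and 47 cells. For the neutrophil-like cells of library 4, 1 cell supplied 13 of the 19 Ifit3 UMIs and 1 supplied 9 of the 18 Ifit1 UMIs.

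How the members met in single cells was followed after each cell had been thinned to 2000 UMIs, with shallower cells left out. Of the endothelial cell-like cells 36.4% (exact 95% binomial interval 34.5 to 38.3, 916 of 2519 cells) held 5 or more distinct members, and of the monocyte-derived macrophage-like cells 26.3% (exact 95% binomial interval 21.9 to 31.1, 98 of 372 cells). The share was 24.4% (exact 95% binomial interval 18.1 to 31.6, 41 of 168 cells) in neutrophil-like, 2.55% (exact 95% binomial interval 2.22 to 2.92, 203 of 7953 cells) in microglia-like, 1.93% (exact 95% binomial interval 1.09 to 3.17, 15 of 776 cells) in pericyte-like and 0.108% (exact 95% binomial interval 0.0223 to 0.315, 3 of 2780 cells) in oligodendrocyte-like cells. The median depths before thinning were 3989 UMIs in endothelial, 5150 UMIs in microglia-like, 8830 UMIs in monocyte-derived macrophage-like and 8889 UMIs in oligodendrocyte-like cells. They were 3126 UMIs in neutrophil-like and 3319 UMIs in pericyte-like cells. The class with the highest share was thus shallower than microglia, macrophages and oligodendrocytes but deeper than neutrophils and pericytes. The 3 oligodendrocyte-like cells all lay in the cluster rich in doublets. By library the endothelial share was 35.1, 41.8, 45.8, 43.5, 32.6 and 23.6%, and the microglial one 0.362, 1.78, 2.84, 2.33, 2.04 and 3.43%, in libraries 1 to 6. Endothelium was thus lowest in library 6 and microglia in library 1.

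**Figure D4:**
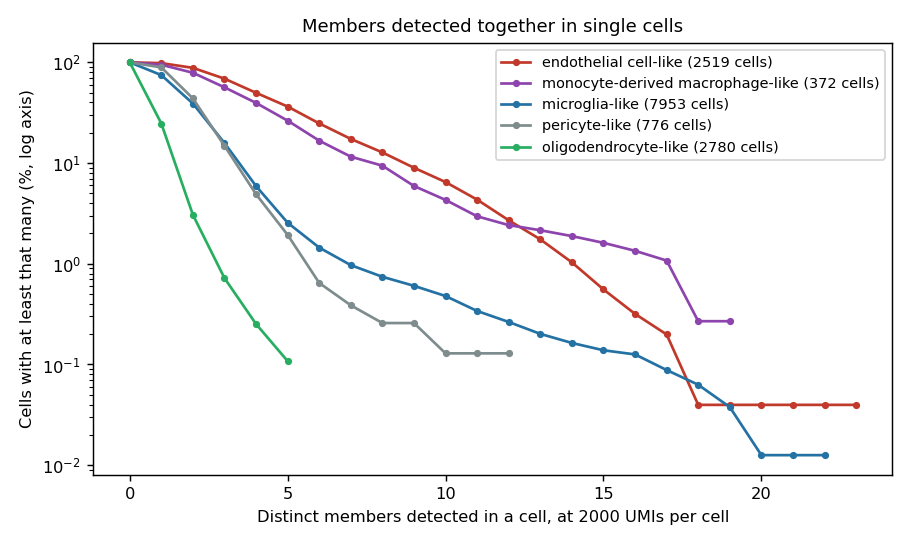
Percentage of cells (log axis) that held at least a given number of distinct members (horizontal axis) after thinning to 2000 UMIs per cell, in 5 cell classes, 6 libraries together. Endothelial and monocyte-derived macrophage-like cells fall slowly, whereas microglia-like cells drop to 2.55% at 5 members and then keep a thin tail up to 22 members.

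Microglia divided the members into those spread over the class and those gathered in few cells. Cells with 5 or more other members made up about 2.5% of the class, and they held 84.6% of the Ifit3 UMIs, 77.8% of those of Oasl1, 75% of those of Ifit1, 69.1% of those of Oasl2 and 60% of those of Rsad2. The same cells held 7.69% of the Bst2 UMIs, 7.76% of those of Trim30a, 3.03% of those of Irf9, 2.75% of those of Irf1 and 2.16% of those of Gbp3. Gbp3 and Irf1 thus lay in such cells about as often as the cells themselves occurred, and the IFIT genes far more often. Isg15 lay between, at 35%.

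38 microglia-like cells held 10 or more members, a cut chosen after the values were seen. They numbered 0, 0, 16, 4, 5 and 13 in libraries 1 to 6, came from 5 microglial clusters and included no called doublet. 17 of them had 10 or 11 members, and 21 cells just outside the cut had 8 or 9. Their median depth was 5148 UMIs, beside 5204 UMIs in the 7750 cells with 4 or fewer members. Since these cells were chosen by the members, the members' own levels in them are no result, but 85 other interferon-stimulated genes were measured in the same cells. Of the 69 with enough UMIs, 54 were counted as at least 2-fold higher than in cells with 4 or fewer members, beside 28.2% of 12874 genes. The median log2 ratio was 2.08 against 0.16 for all genes outside the members. A count of 0 was set to 3 UMIs, so that Phf11c is among the 54 with 0 UMIs in the 38 cells and 29 in the others. The share of all genes may likewise include genes unseen in the 38 cells.

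Slfn5, a Schlafen family gene, was at 389 CPM against 2.80 CPM and found in 28 of the 38 cells. Rnf213, a large ubiquitin ligase, was at 309 CPM against 15.2 CPM, Ifi207 at 349 CPM against 10.98 CPM and Tap1, which loads peptides for class I presentation, at 215 CPM against 29.2 CPM. The chemokine gene Cxcl10 was at 2837 CPM against 247 CPM but was found in 12 of the 38 cells. In contrast B2m was at 1754 CPM against 1449 CPM and Irf8, a myeloid factor, at 582 CPM against 491 CPM. The 8 microglia markers summed to 13115 CPM in the 38 cells and 18078 CPM in the others, the 7 endothelial markers to 8.95 and 28.4 CPM, and the 6 neutrophil markers to 125 and 168 CPM, while T lymphocyte and natural killer cell markers were at 0 in the 38 cells.

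**Figure D5:**
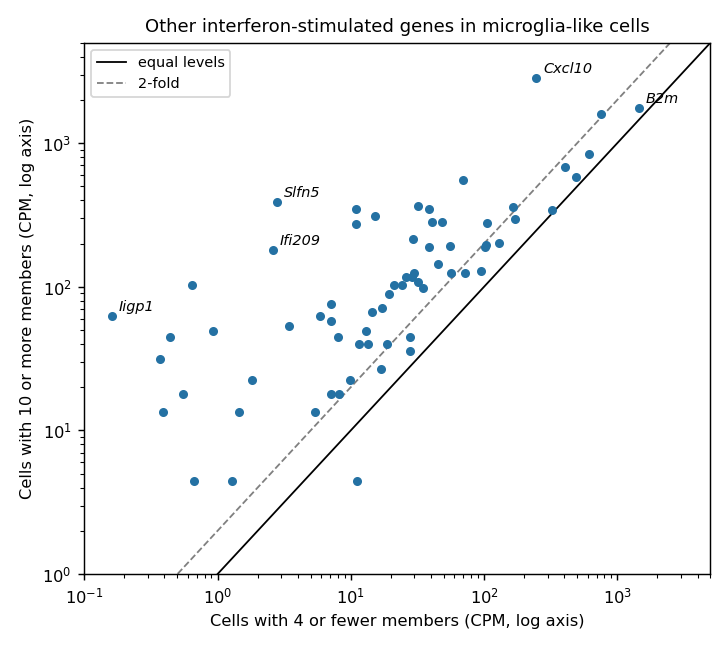
Level of interferon-stimulated genes outside the list (1 point each) in microglia-like cells with 10 or more members (vertical axis, CPM, log scale) against those with 4 or fewer (horizontal axis, CPM, log scale), with lines for equal and 2-fold levels. Most points lie above the 2-fold line, among them Slfn5 and Ifi209, while B2m lies near equality. Iigp1 also lies above it but passed the UMI minimum only through the 38 cells. Genes with no UMI in the 38 cells cannot be shown on the log axis.

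Interferon transcripts themselves were scarce in these cells. Of the type I ligands, Ifnb1 had 176 UMIs in 36 cells, Ifnz had 5 in microglia-like cells and Ifnab 1, while the Ifna genes, Ifne and Ifnk had 0. 27 microglia-like cells held 67 of the Ifnb1 UMIs, and 1 of the 27 had 5 or more members after thinning, beside 202 of 7926 microglia-like cells without Ifnb1. In the cluster led by class II genes 4 cells held 28 Ifnb1 UMIs. Of these 4 cells 2 had 5 or more members, beside 63 of 253 without Ifnb1. Among monocyte-derived macrophage-like cells it was 1 of 2 cells with Ifnb1, beside 97 of 370 without it. 75 Ifnb1 UMIs came from 1 pericyte-like cell of library 3 that was called a doublet. Ifng, the type II ligand, had 103 of its 105 UMIs in T lymphocyte-like cells, where 22 of 95 cells held it, and the type III ligands Ifnl2 and Ifnl3 had 0.

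UMIs were found for 3 of 18 type I ligands, but for 6 of 6 receptors, 11 of 11 sensors and adaptors and 4 of 5 negative regulators. Ifnar1 was at 157 CPM in endothelial cell-like, 101 CPM in monocyte-derived macrophage-like, 99.7 CPM in neutrophil-like, 54.8 CPM in microglia-like and 21.6 CPM in oligodendrocyte-like cells. Ifnar2 was at 282 CPM in endothelium, 247 CPM in microglia, 227 CPM in pericytes and 40.4 CPM in oligodendrocytes. Ifngr1, the receptor chain for interferon gamma, was at 808 CPM in T lymphocyte-like and 764 CPM in microglia-like cells, beside 88.5 CPM in endothelium.

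Several sensors that start interferon production were higher in microglia than in endothelium. Cgas, the DNA sensor, and Tmem173 (STING), its adaptor, were at 54.9 and 222 CPM in microglia and at 8.27 and 15.9 CPM in endothelium. Tlr7 was at 149 CPM in microglia and 1.72 CPM in endothelium, and Tlr3 at 146 CPM in astrocytes and 72.2 CPM in microglia. Ddx58 (RIG-I), itself interferon-induced, was at 58.1 CPM in endothelium and 20.6 CPM in microglia. Of the regulators that dampen the response, Socs3 was at 457 CPM in smooth muscle cell-like and 433 CPM in microglia-like cells, Samhd1 at 281 CPM in neutrophil-like and 96.9 CPM in endothelial cell-like cells, and Socs1 at 61.2 CPM in T lymphocyte-like cells, while Trex1 had 0 UMIs.

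Over 47 pairs of class and library with at least 20 cells, the gene outside the list whose log2(CPM + 1) ran closest to that of the summed members was Gng5, with Pearson's r = 0.907. Tspo, Cast, Msn, Clec2d, Myh9, Ddx58, Anxa11, Capg and Vamp8 followed, down to r = 0.865. Without Ifitm3 in the sum the closest were Rap1b (r = 0.890), Ostf1, Samhd1, H2-D1, Vamp8, Capg, Tspo, Tes and H2-K1 (r = 0.858). The 47 points are not independent, since pairs share libraries and classes.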

How the data were processed

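Single-cell libraries of mouse cortex were analysed from 1 deposited matrix of UMI counts (40769280 barcodes, 6 libraries), which the authors made with Cell Ranger (5.0.1 in the matrix header, 5 in the submitters' processing notes, build mm10) and the study's methods describe as aggregated with depth normalization between libraries, so that reads may have been thinned. Barcodes with at least 0.1 of the library's 99th UMI percentile (3000 cells expected), over 200 genes and under 10% mitochondrial UMIs were kept (17357 cells, whereas the study's filters alone left 19864). Erythrocyte barcodes (over 5% hemoglobin UMIs), the cluster naming rule and the cut at 10 members were set after seeing the data. Cells were log-normalized and clustered (2000 variable genes without the members or other interferon-stimulated genes, 30 components, 20 neighbours, leidenalg 0.10.2, resolution 0.8) in Python 3.11.15. Doublets were scored on simulated pairs (0.785% to 3.03% called by library) and kept. Levels are CPM of summed counts, with exact Poisson, binomial or conditional ratio intervals (scipy 1.17.1). These were tested on simulated counts. With 1 sample per group and no map from library to sample there is no test, and cells are not replicates.

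Members and lists were chosen with earlier results of these data known. The members named in each class are those with the most UMIs, those that differed most between libraries and 8 fixed genes, Ifit1, Ifit3, Isg15, Irf7, Irf1, Ifitm3, Bst2 and Usp18. The 10 genes most alike were named, except an item not reported here. Fold counts used genes with at least 20 UMIs over both classes and counts between libraries genes with at least 100. In fold counts a count of 0 was set to 3 UMIs, so that a gene unseen in a small class can be counted as higher there. Alternatives were other resolutions, both sets allowed in clustering, doublets removed, the study's filters, mean CPM of cells, other folds, minimums and depths, leaving out abundant members and leaving out each library, and, chosen after seeing the data, leaving out Ifitm3, class ranks within each library and values without 1 cell. Members without a RefSeq promoter here were Oas2, Usp18, Rtp4, Parp14, Zbp1, Ifi204, Ifi27l2a and Dhx58.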

Additional observations from a re-analysis of the deposited data

How the results depend on the processing

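No paired analysis was possible because no library number is tied to a sample and no test was made. The order monocyte-derived macrophage-like, endothelial, pericyte-like, microglia-like, oligodendrocyte-like was the same with doublets removed, at both other resolutions, with the members and other interferon-stimulated genes allowed in the clustering, with the study's filters alone, with the mean CPM of cells and with each library left out. It changed without Ifitm3, where microglia passed pericytes, and without the 5 most abundant members (Ifitm3, Bst2, Trim30a, Irf1, Ifi27l2a), where endothelium led. Sums that moved past their counting interval were, without the 5 most abundant members, 1695 CPM in endothelium, 448 in microglia, 366 in pericytes, 141 in oligodendrocytes and 1162 in monocyte-derived macrophages, and without Ifitm3 2102, 824, 445, 157 and 2330 CPM. Endothelium moved to 4040 CPM with the study's filters and 4132 CPM as the mean of cells. Pericytes moved to 2202 CPM at resolution 0.4, 1617 CPM at 1.2, 1619 CPM without doublets and 1613 CPM with the study's filters. Oligodendrocytes moved to 143 CPM without doublets, 153 CPM at resolution 1.2 and 151 CPM with both gene sets allowed in the clustering. Leaving out 1 library gave 3902 to 4521 CPM in endothelium, 829.9 to 858 in microglia, 1398 to 1832 in pericytes and 3942 (without library 4) to 7589.6 (without library 6) in monocyte-derived macrophages. Over all cells without Ifitm3, libraries 1 to 6 had 460.5, 508, 805, 898, 878 and 1019 CPM, beside 609.5, 666, 1051, 1477, 1241 and 2151 CPM with it. The highest to lowest ratio between libraries moved to 1.32 without doublets and 1.32 without the 5 in oligodendrocytes, 1.91 in endothelium without the 5, and 1.65 and 1.58 in pericytes without the 5 and without Ifitm3.

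Members higher in pericytes than in smooth muscle numbered 2 at 3-fold and 8 with no minimum beyond 1 UMI, beside 5. With a minimum of 30 UMIs, members that differed 3-fold between libraries numbered 11 of 15 in oligodendrocytes (19.3% of all genes), 9 of 35 in endothelium (26.4%), 14 of 17 in astrocytes (32.3%) and 14 of 20 in pericytes (35.3%). With a minimum of 100 UMIs, 20 of 30 differed 2-fold in endothelium (45.5%). The other 12 alternative counts between classes and 5 between libraries stayed within 1.5 times. Shares with 5 or more members depended on depth and number by construction: at 1000 UMIs, unthinned, with 4 and with 6 members they were 15.01, 63.8, 49.8 and 24.7% in endothelium, 0.837, 19.96, 5.9 and 1.45% in microglia, 12.9, 69.7, 39.5 and 16.7% in monocyte-derived macrophages and 10.1, 41.6, 37.5 and 15.5% in neutrophils. Sums without Ifitm3 or without the 5 most abundant members are lower by construction, since fewer genes are summed. For the other moves the cause was not tested. Low members in small classes rest on few UMIs, and their order is not resolved at this depth.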

Other observations

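Ifi44, an interferon-induced protein of unsettled function, showed a library pattern in microglia-like cells that it did not show in endothelium, and it was singled out after its values were seen. In microglia-like cells it was at 3.40, 5.72, 15.4, 9.80 CPM in libraries 1 to 4, and no UMI was seen in the 861 cells of library 5 or the 992 cells of library 6, which allows up to 0.632 and 0.471 CPM (3 UMIs of the class in that library). In endothelial cell-like cells it was at 20.6, 31.4, 66.3, 39.5, 27.7 and 25.1 CPM in libraries 1 to 6, so that libraries 5 and 6 were within the range of the others. Monocyte-derived macrophage-like cells held it at 29.2 CPM in library 4 and at 0 UMIs in the 233 cells of library 6 (up to 1.39 CPM). In the cluster led by class II genes it was at 33.2, 35.98, 8.56 and 1.56 CPM in libraries 3 to 6, the last 2 values resting on 2 UMIs each. Other members did not vanish from these libraries, since Ifit3 and Isg15 in microglia-like cells were at 21.5 and 34.1 CPM in library 6. The cause was not tested.

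Irf1 differed between microglial clusters. It was at 166 CPM in the 1925 cells of a cluster led by Cd83, Atf3 and Fosb, immediate-early and inflammatory genes, at 110.1 CPM in the Mmp12 cluster, at 72.7 CPM in the Ccl12 cluster and at 35.1 and 62.8 CPM in the 2 clusters led by P2ry12 and by Maf. Ifit1 was at 0.745 CPM in the Cd83 cluster and 4.19 CPM in the P2ry12 cluster, so that these 2 members had opposite orders there. Free RNA held Ifit1 at 3.52 to 11.2 CPM by library, and its part in this order was not tested.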
